A study of Mus musculus with 16 samples.

Results

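The 10 imprinted genes Mcts2, Zdbf2, H19, Igf2, Igf2r, Peg3, Peg10, Phlda2, Ndn and Grb10, which lie outside the Dlk1-Dio3 cluster, were followed over all 16 arrays of a mouse stem cell series. A probe set was taken where its only gene symbol was one of these names, which gave 24 of the 45101 probe sets and 9 of the 18193 named genes. No probe set carried H19 as its only symbol, so H19 has no value here. Ndn had 8 probe sets, Peg3 had 5, Grb10 had 3, Igf2 and Igf2r had 2 each, and Mcts2, Zdbf2, Peg10 and Phlda2 had 1 each. The genes were selected on their log2 levels and group differences in these same arrays, so those levels and differences are given as a description, with no p-value. How many members passed the threshold of the genome-wide fit is counted once, beside the share of all genes that did, and supports nothing.

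Genome-wide expression was measured on Affymetrix arrays in 7 groups of C57Bl6 wild type cells. Haematopoietic stem cells (HSC), the cells that renew the blood, came from the bone marrow of male mice at steady state, 3 arrays of young animals (3 to 4 months) and 3 of aged animals (21 to 24 months). HSC were also sorted from recipients of young or aged bone marrow, 2 arrays each, for which the labels give neither age nor sex. Pluripotent cells made by reprogramming (iPSC), of young or aged haematopoietic origin, had 2 arrays each, and embryonic stem cells (ESC) from 2 commercial suppliers, Open Biosystems and Primogenix, had 1 array each. The iPSC and ESC were grown on embryonic fibroblast feeders and sorted. The labels call the HSC and iPSC arrays biological replicates but do not say whether they came from separate animals, clones or cultures, so p-values measure only the spread between these samples. The design asks how age, passage through a recipient and reprogramming to pluripotency bear on expression.

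Imprinted genes are expressed mainly from the chromosome inherited from one parent, because a control region is DNA-methylated in only one of the germ lines and keeps that mark after fertilisation. The zinc finger protein ZFP57, with its corepressor TRIM28, binds the methylated copy and holds the mark while the rest of the genome is reprogrammed. In HSC, imprinted growth regulators have been linked to quiescence, and loss or gain of imprinted marks is a known variable of pluripotent cultures. The arrays measure the RNA of both parental copies together, so no value below tells one allele from the other.

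The cells matched their labels. Summed over 10 HSC marker genes, intensity was 24533 to 29399 in steady-state HSC, 8148 to 9249 in transplanted HSC and 673 to 788 in iPSC and ESC. All 10 pluripotency markers were above the array median in iPSC and ESC. At steady state the HSC marker sum was 24533 to 27788 in young and 28422 to 29399 in aged arrays, without overlap. Slamf1 (group means 8.62 and 9.51) and Procr (10.95 and 11.62) were higher in aged HSC, and Cd34 (10.78 and 9.97) was lower. With age there 0 of 10 HSC markers were called and 3 had an unadjusted p under 0.05 (limma). Their part in the age differences was not tested. The transplanted arrays stood apart from the rest in their RNA. The log2 difference between the 3′ and 5′ control probe sets of beta-actin was -0.26 to -0.05 on them against 1.98 to 2.25 at steady state, 2.08 to 2.69 in iPSC and 1.97 to 2.22 in ESC. Transplantation, RNA preparation and sex cannot be told apart in any comparison of transplanted with steady-state HSC.

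The DNA just upstream of 3 of the genes is shown, since Mcts2 and Zdbf2 were the members that differed most between iPSC and ESC, and Ndn is the member whose age difference was largest in transplanted HSC. Each sequence is the 250 bases before a RefSeq transcript start in mouse build GRCm38.p6, written in the direction of transcription. The windows lie at chr2:152686898-152687147 for Mcts2, chr1:63200108-63200357 and chr1:63273019-63273268 for the distal and proximal starts of Zdbf2, and chr7:62348027-62348276 for Ndn, all on the plus strand. Capitals mark TGCCGC, or GCGGCA where it reads on the other strand, the hexamer that ZFP57 binds when its CpG is methylated.
Mcts2: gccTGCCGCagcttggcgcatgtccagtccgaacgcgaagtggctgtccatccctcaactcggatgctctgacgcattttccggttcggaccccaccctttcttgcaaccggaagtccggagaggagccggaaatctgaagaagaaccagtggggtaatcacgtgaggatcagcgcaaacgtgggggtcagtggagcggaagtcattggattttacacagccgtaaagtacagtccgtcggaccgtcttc
Zdbf2 distal: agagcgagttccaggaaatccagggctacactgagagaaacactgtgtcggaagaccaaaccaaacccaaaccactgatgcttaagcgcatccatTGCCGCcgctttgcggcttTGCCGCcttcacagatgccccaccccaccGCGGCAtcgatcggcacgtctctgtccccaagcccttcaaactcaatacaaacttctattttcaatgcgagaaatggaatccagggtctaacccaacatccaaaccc
Zdbf2 proximal: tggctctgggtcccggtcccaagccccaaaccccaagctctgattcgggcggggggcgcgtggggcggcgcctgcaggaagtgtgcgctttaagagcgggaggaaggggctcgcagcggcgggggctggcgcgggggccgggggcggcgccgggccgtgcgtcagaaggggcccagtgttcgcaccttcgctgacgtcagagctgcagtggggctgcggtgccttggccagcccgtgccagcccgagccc
Ndn: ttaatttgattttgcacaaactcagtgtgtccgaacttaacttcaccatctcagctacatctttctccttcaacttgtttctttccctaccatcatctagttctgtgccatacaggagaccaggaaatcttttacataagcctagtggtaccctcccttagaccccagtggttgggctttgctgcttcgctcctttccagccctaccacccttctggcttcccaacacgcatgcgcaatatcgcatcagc
The hexamer occurred 3 times in the distal Zdbf2 window and 1 time in the Mcts2 window. It was in none of the other 11 windows available for 8 of the genes, and 8.68% of 32851 promoter windows of the same length held it at least 1 time. The count of 3 or more was reached by 0.0731% of them. The Mcts2 window held 20 CpG dinucleotides, the Zdbf2 windows 13 and 26, and the Ndn window 5, beside a median of 6 over all windows. These counts describe the letters alone, and no methylation was measured.

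**Figure D1:**
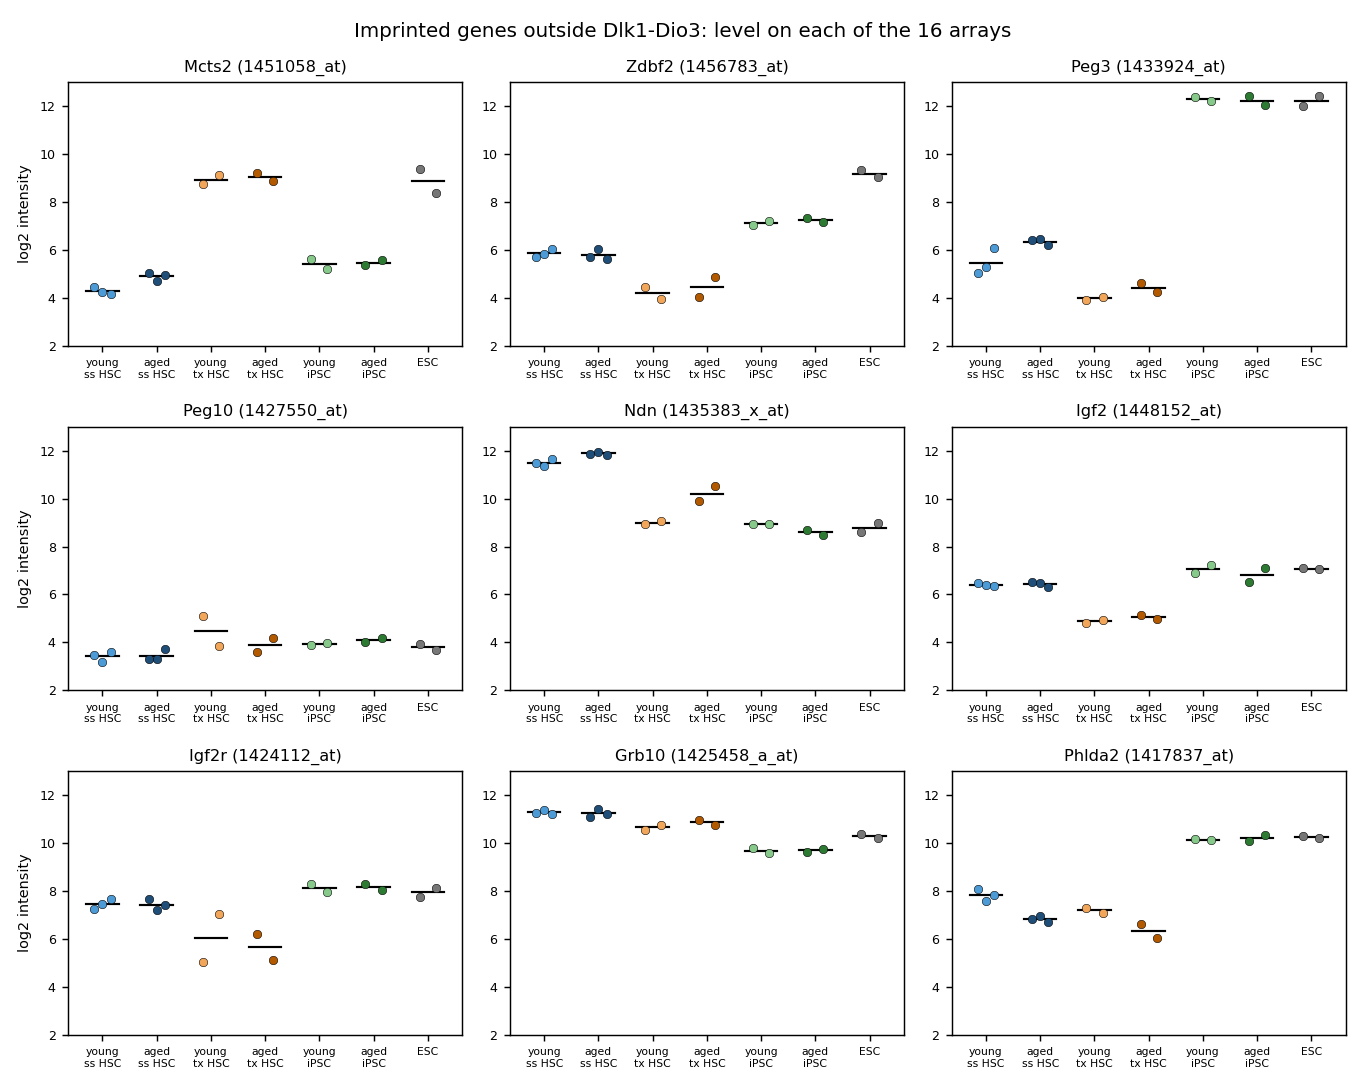
Log2 intensity of each measured member (y axis) on the 16 arrays, by group (x axis), for the probe set with the highest mean of each gene. Each point is an array and each bar the group mean. ss is steady state and tx is transplanted. Mcts2 is high in transplanted HSC and ESC and low in iPSC, while Peg3 and Phlda2 are high in all 6 iPSC and ESC arrays.

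Mcts2 is an intronless, paternally expressed gene inside an intron of H13, and it is a copy of the X-linked gene Mcts1, which encodes a protein that acts in translation restart. The gene lies at chr2:152687148-152687946, within H13 at chr2:152669422-152708668. On the log2 intensity scale, the 3 young steady-state arrays read 4.45, 4.22 and 4.15, and the 3 aged ones read 5.04, 4.69 and 4.95. The transplanted arrays read 8.75 and 9.13 for young marrow and 9.19 and 8.87 for aged marrow. Mcts2 was therefore near the dim end of the array at steady state, where the 25th percentile of all probe sets lies at 4.11 to 4.31, and well above the array medians of 5.44 to 5.70 after transplantation. The iPSC read 5.60 and 5.21 for young origin and 5.38 and 5.56 for aged origin. The ESC read 9.38 and 8.37. All 4 iPSC arrays lay below both ESC arrays, with no overlap and irrespective of the age of the source. Because each array reports RNA from many sorted cells together, fewer cells of a type and less RNA per cell cannot be told apart in these values.

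By group mean, Mcts2 was highest in aged transplanted HSC at 9.03 ± 0.23 (SD, n = 2), young transplanted HSC at 8.94 ± 0.26 and ESC at 8.88 ± 0.71, and these 3 groups overlapped. They were followed by aged-origin iPSC at 5.47 ± 0.13 and young-origin iPSC at 5.41 ± 0.28, which overlapped, then by aged steady-state HSC at 4.89 ± 0.18 (n = 3) and young steady-state HSC at 4.27 ± 0.15 (n = 3), which did not. The mean of the iPSC was 3.44 lower than that of the ESC (SE 0.24, limma), 10.8-fold on the intensity scale, which ranked 2nd in size among 13645 genes. The mean of the transplanted arrays was 4.40 higher than that of the steady-state arrays (SE 0.15), or 21.2-fold, a size that rests on a steady-state level near the dim end. That difference ranked 38th in size.

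The paralog did not show the same pattern, and the probe sets of the host gene differed among themselves. Mcts1, with a single probe set, differed by -0.05 between iPSC and ESC and by -1.50 between transplanted and steady-state HSC, the opposite sign to Mcts2. H13 encodes a signal peptide peptidase and is known to end its transcripts at different sites on the parental copies. Its 6 probe sets went different ways in transplanted HSC, 3 of them higher and 2 lower with no overlap. The set 1428856_at read 4.15 to 4.64 at steady state and 8.41 to 9.35 after transplantation, whereas 1438456_at read 9.14 to 10.15 at steady state and 6.35 to 7.44 after it. Between iPSC and ESC, 3 sets were higher in iPSC without overlap, 1417287_at by 0.85, 1438865_at by 0.65 and 1428855_at by 0.30. The set 1455631_at was lower in iPSC by 0.85 without overlap, and the other 2 overlapped. That set was also higher after transplantation, at 6.39 to 7.07 against 3.38 to 4.13 at steady state. Both directions were those of Mcts2, but 1455631_at lay under the 25th percentile on 10 of 16 arrays. The probe set that represents H13 by brightness, 1417287_at, did not pass the test between iPSC and ESC (adjusted p = 0.199, limma).

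**Figure D2:**
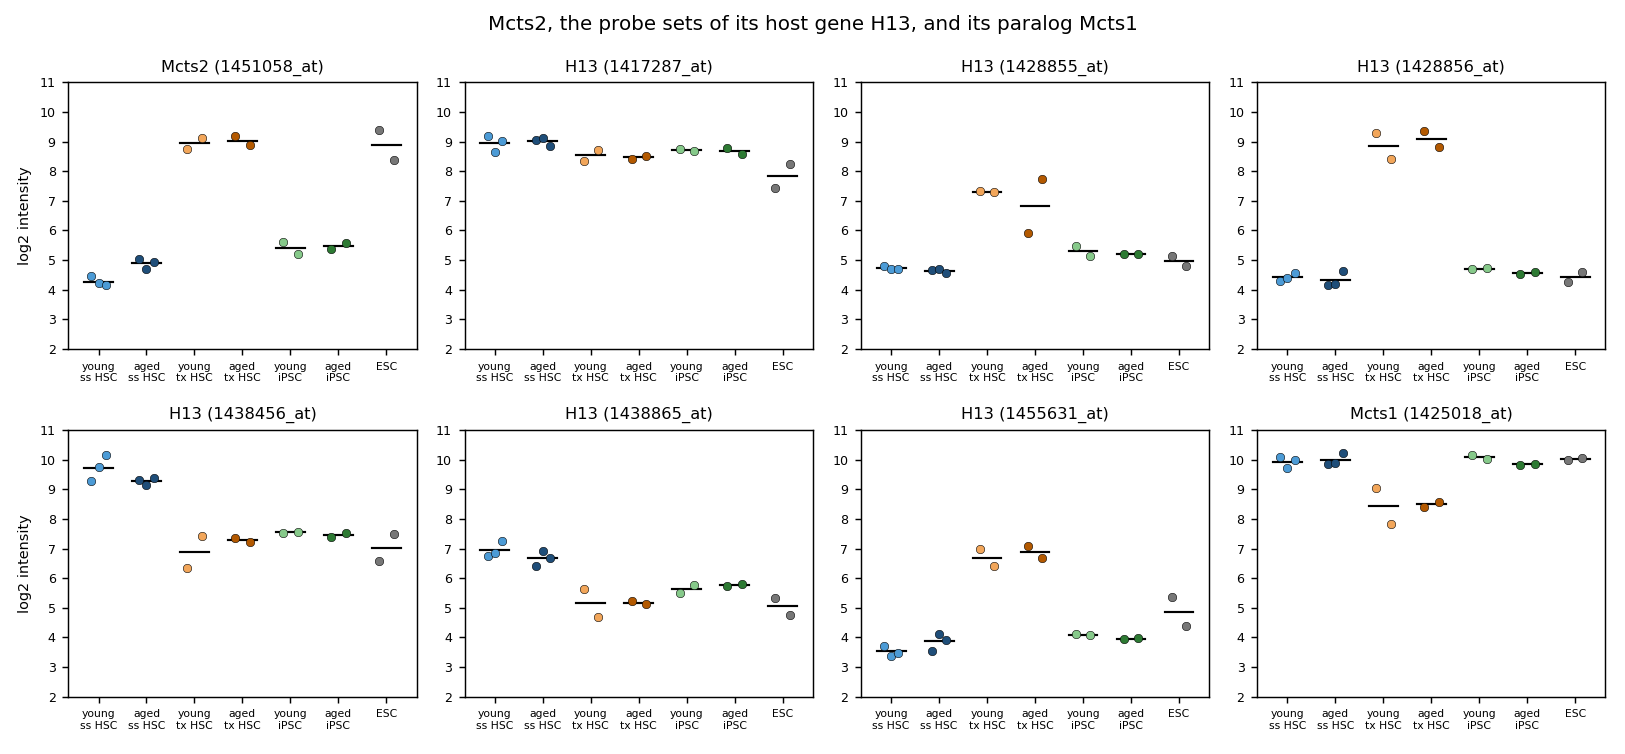
Log2 intensity (y axis) of Mcts2, the 6 probe sets of its host gene H13 and the paralog Mcts1 on the 16 arrays, by group (x axis). Points are arrays and bars are group means. In transplanted HSC 3 H13 sets are high and 2 are low, while in iPSC none of the 6 falls as far below ESC as Mcts2, whose difference is -3.44.

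Zdbf2 encodes a zinc finger protein, is expressed from the paternal copy, and lies at chr1:63200358-63314576. Its levels were 5.69, 5.81 and 6.05 in young and 5.71, 6.05 and 5.64 in aged steady-state HSC. They were 4.44 and 3.93 after transplantation of young marrow and 4.04 and 4.87 after aged marrow. Neither pair of age groups separated. In iPSC the levels were 7.05 and 7.21 for young origin and 7.33 and 7.16 for aged origin, and in ESC they were 9.33 and 9.04. Zdbf2 thus fell into 4 levels without overlap, ESC above iPSC above steady-state HSC above transplanted HSC. The iPSC mean was 2.00 below the ESC mean (SE 0.13), or 4.00-fold, which ranked 6th in size. The transplanted mean was 1.51 below the steady-state mean (SE 0.19). Of its neighbours, Adam23 differed between iPSC and ESC by -0.22 (adjusted p = 0.664) and Gpr1 by -0.0037 (adjusted p = 0.995), and neither passed the test.

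Peg3 encodes a large zinc finger protein that is expressed from the paternal copy and acts in growth and maternal behaviour. It lies at chr7:6703892-6730462. Its brightest probe set, 1433924_at, read 5.02, 5.28 and 6.08 in young and 6.43, 6.44 and 6.19 in aged steady-state HSC, and 3.92, 4.05, 4.62 and 4.23 in the transplanted arrays, young before aged. The iPSC read 12.37, 12.24, 12.41 and 12.06, and in ESC 12.01 and 12.41. The pluripotent arrays were above every HSC array by a wide margin and overlapped among themselves, and each of the 4 HSC groups kept apart from the others. The iPSC mean exceeded the steady-state mean by 6.37 (SE 0.19), or 82.5-fold, and differed from the ESC mean by 0.06 (SE 0.15).

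The age difference of Peg3 at steady state depended on the probe set. The set 1433924_at was higher in aged HSC by 0.89 (SE 0.26) without overlap. The second brightest, 1417355_at, read 5.22, 4.99 and 5.98 in young and 5.08, 4.36 and 4.89 in aged HSC, a mean difference of -0.62 with overlap. The 2 sets agreed on the larger contrasts, with 1417355_at at 10.46 to 10.61 in iPSC and at 10.39 and 10.62 in ESC. Of the other 3 sets, 1417356_at was below the array median on all 16 arrays and 1447731_at and 1447732_x_at were below the 25th percentile on all 16.

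Peg10, a paternally expressed gene of retrotransposon origin needed for the placenta, was dim throughout. Its single probe set read 3.17 to 3.74 at steady state and 5.10, 3.84, 3.60 and 4.19 after transplantation. It read 3.88 to 4.19 in iPSC and 3.95 and 3.66 in ESC. It lay under the 25th percentile on 15 of 16 arrays and did not pass the filter on dim genes, so 8 of the 9 measured members entered the fits. The table holds no detection calls, and a level there cannot be told from background.

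Ndn encodes Necdin, a paternally expressed protein of the MAGE family that restrains cell division and is known in HSC as a target of p53 linked to quiescence. The gene lies at chr7:62348277-62349928 and has 5 bright and 3 dim probe sets. The brightest, 1435383_x_at, read 11.51, 11.36 and 11.64 in young and 11.86, 11.96 and 11.84 in aged steady-state HSC. After transplantation it read 8.94 and 9.05 for young marrow and 9.89 and 10.53 for aged marrow. In both settings every aged array was above every young array. In iPSC it read 8.95 and 8.92 for young origin and 8.70 and 8.48 for aged origin, and in ESC 8.60 and 8.97. The 2 aged-origin iPSC arrays were below the 2 young-origin arrays, the reverse of HSC, and the ESC arrays overlapped both.

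The aged minus young difference of Ndn was 0.38 (SE 0.19) at steady state, 1.22 (SE 0.23, 2.32-fold) after transplantation and -0.35 (SE 0.15) in iPSC. The age difference after transplantation exceeded that at steady state by 0.83 (SE 0.30). Its 5 bright probe sets were all higher in aged steady-state HSC without overlap, by 0.38 to 0.71. In transplanted HSC the same 5 sets were higher by 0.68 to 1.87, and 1415923_at overlapped, at 5.07 and 5.57 for young against 6.74 and 5.26 for aged marrow. The sets 1437853_x_at and 1455792_x_at overlapped between transplanted and steady-state HSC, while the other 3 bright sets were lower after transplantation without overlap. An x in a probe set name means that some of its probes may bind other transcripts. The neighbour Magel2, another paternally expressed MAGE gene, differed with age by 0.18 at steady state and by -0.08 after transplantation, and neither passed the test.

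**Figure D3:**
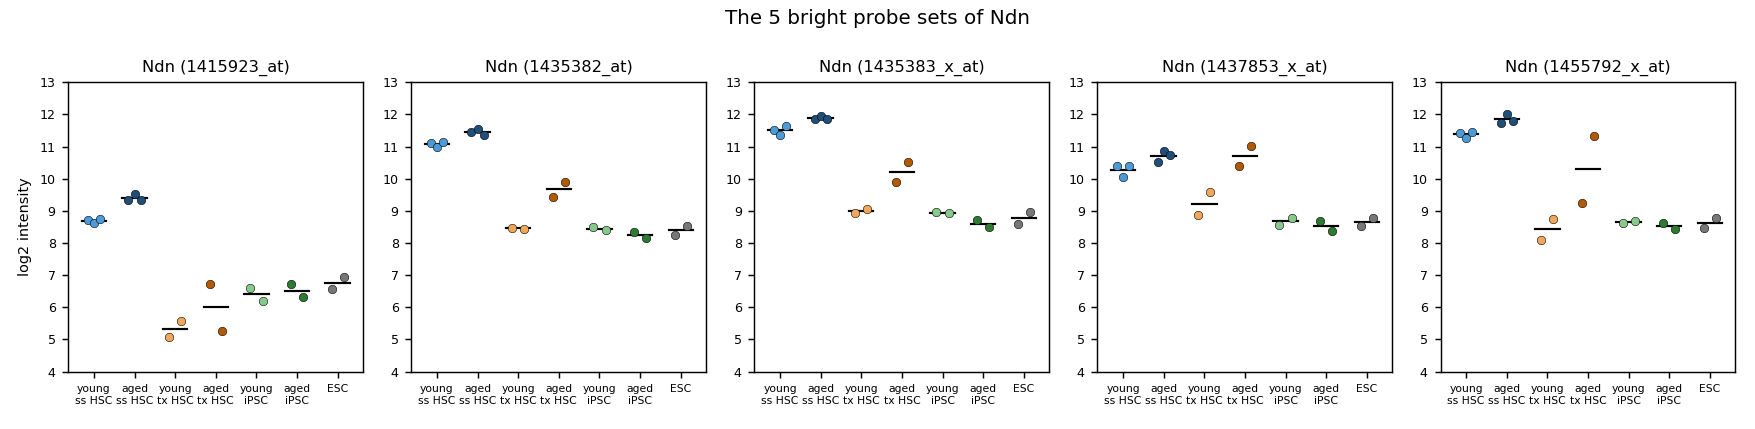
Log2 intensity (y axis) of the 5 bright probe sets of Ndn on the 16 arrays, by group (x axis), with points for arrays and bars for group means. In each panel the 3 aged steady-state arrays lie above the 3 young ones, and only 1415923_at overlaps between the ages after transplantation.

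Igf2 encodes a fetal growth factor expressed from the paternal copy, at chr7:142650768-142666816. The set 1448152_at read 6.46, 6.41 and 6.34 in young and 6.51, 6.49 and 6.29 in aged steady-state HSC, and 4.82, 4.94, 5.12 and 4.98 in transplanted HSC, young before aged. In iPSC it read 6.88 and 7.24 for young origin and 6.53 and 7.09 for aged origin, and in ESC 7.11 and 7.04. The age groups overlapped at steady state and in iPSC, iPSC overlapped ESC, and the transplanted arrays were lower than the steady-state arrays by 1.45 (SE 0.12). The other set, 1415931_at, was under the 25th percentile on all 16 arrays.

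Igf2r encodes the receptor that takes up and degrades IGF2, and it is expressed from the maternal copy. It lies at chr17:12682406-12769706. Its 2 probe sets differed in transplanted HSC. The set 1424112_at read 7.20 to 7.68 at steady state and 5.02, 7.04, 6.19 and 5.10 after transplantation, with the 2 young-marrow arrays at the lowest and the highest of these, and its mean was lower there by 1.61 (SE 0.36). The set 1424111_at read 6.32 to 6.81 at steady state and 6.29 to 6.97 after transplantation, which overlap. In iPSC 1424112_at read 7.97 to 8.30 and in ESC 7.76 and 8.15. Neither set separated the age groups in any cell type. Airn, the paternal antisense RNA that silences Igf2r, rose in transplanted HSC by 1.27 (SE 0.29, adjusted p = 0.00246, limma). The sense and antisense sets share a locus, and the part of Airn in the Igf2r values was not tested. The Airn arrays overlapped, at 5.62 to 6.48 at steady state and 6.32, 7.85, 7.72 and 7.74 after transplantation, young before aged.

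Grb10 encodes an adaptor that binds the insulin and IGF1 receptors and dampens their signal, and it is expressed from the maternal copy in most tissues. It lies at chr11:11930499-12037428. Its brightest set, 1425458_a_at, read 11.24, 11.40 and 11.23 in young and 11.09, 11.42 and 11.24 in aged steady-state HSC, and 10.56, 10.76, 10.96 and 10.76 after transplantation, young before aged. The iPSC read 9.80, 9.58, 9.63 and 9.76, and in ESC 10.37 and 10.21. The steady-state arrays were highest, followed by transplanted HSC, ESC and iPSC, with no overlap between these 4 kinds of cell. The iPSC mean was 0.60 below the ESC mean (SE 0.12), which ranked 132nd in size and was not called. Its neighbours Ddc and Cobl differed there by -0.50 (adjusted p = 0.222) and -0.52 (adjusted p = 0.308), and neither passed the test. The other 2 sets pointed the other way in HSC. The mean of 1425457_a_at was 3.00 higher in transplanted than in steady-state HSC and that of 1430164_a_at 1.60 higher, while 1425458_a_at was 0.51 lower. Between iPSC and steady-state HSC 1425458_a_at differed by -1.58 and 1425457_a_at by 0.87, both without overlap, and 1430164_a_at by 0.09 with overlap. The order of the 4 kinds of cell is thus that of the brightest set only.

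Phlda2 encodes a small pleckstrin homology protein expressed from the maternal copy, best known for restraining placental growth, and lies at chr7:143501545-143503145. It read 8.07, 7.58 and 7.85 in young and 6.81, 6.95 and 6.69 in aged steady-state HSC. In transplanted HSC it read 7.30 and 7.07 for young and 6.63 and 6.05 for aged marrow. Aged arrays were below young arrays in both settings with no overlap, by 1.01 (SE 0.20, 2.02-fold) at steady state and by 0.85 (SE 0.25, 1.80-fold) after transplantation. The 2 differences differed from each other by 0.17 (SE 0.32). The summed intensity of markers of other cells was also lower in aged steady-state HSC. The mature blood markers summed to 1310 to 2442 in young and 1001 to 1275 in aged arrays, and the fibroblast and feeder markers to 2814 to 2947 and 2071 to 2158. Sums weight the brightest genes, here Pf4 (group means 10.27 and 9.56) and Vim (11.22 and 10.67), while others, such as Csf1r and Col1a2, were higher in aged arrays. Mean log2 levels overlapped between the ages, at 5.761 to 6.243 and 5.715 to 5.842 for mature blood markers. For fibroblast and feeder markers they were 5.475 to 5.687 and 5.471 to 5.512. In these lists, 0 of 5 and 0 of 8 tested genes were called (1 and 2 had an unadjusted p under 0.05), and their part in the age differences was not tested. Among iPSC it read 10.16 and 10.12 for young origin and 10.09 and 10.35 for aged origin, and in ESC 10.28 and 10.20. These 6 arrays overlapped, the age difference in iPSC was 0.08 (SE 0.13), and the iPSC mean was 2.85 above the steady-state mean (SE 0.14). The paralog Phlda3 and the neighbours Nap1l4 and Slc22a18 differed with age in steady-state HSC by -0.09, 0.03 and 0.02, and none passed the test.

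**Figure D4:**
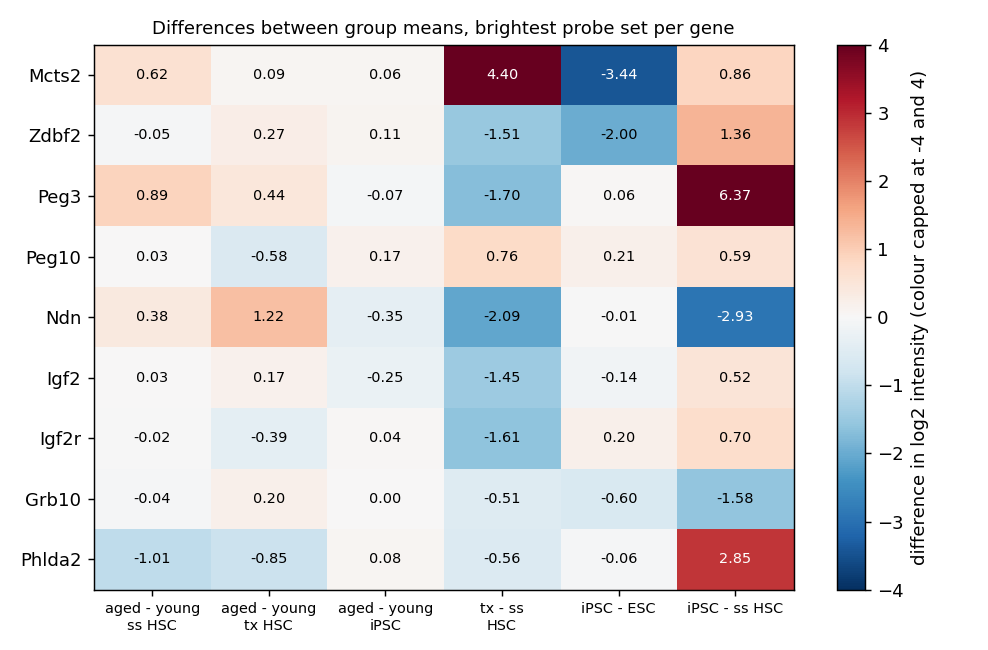
Differences between group means in log2 intensity (colour and printed value) for the 9 measured members (rows) in 6 comparisons (columns), from the brightest probe set of each gene. The column of iPSC against ESC holds 2 values of -2.00 or lower, for Mcts2 and Zdbf2, while Peg3 and Mcts2 exceed 4 in iPSC against steady-state HSC and in transplanted against steady-state HSC respectively.

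Set against all 13645 genes of each fit, the members' counts are a description of genes chosen for these values, and nothing is read from them. Calls were made in limma where the p adjusted by the Benjamini-Hochberg method was under 0.05. With age at steady state 1 of the 8 members was called, Phlda2, where 1.18% of all genes were called. With age after transplantation it was Ndn alone, against 1.35%. In the difference between those age effects 0 were called, against 0.125%, and with age in iPSC 0 were called, against 0.00733%. Mcts2 and Zdbf2 were called lower in iPSC than in ESC, 2 of 8, where 0.11% of genes were called in either direction and 0.066% lower. Between transplanted and steady-state HSC all 8 were called, 7 lower and 1 higher, where 69.9% of genes were called, 50.1% lower and 19.8% higher, and the median of all genes was -0.457. Between iPSC and steady-state HSC 7 of 8 were called, against 76.4%, and the exception was Igf2r at 0.70 (SE 0.31). Groups that did not overlap were found for 4 of 8 members with age at steady state (18.2% of all genes), 5 with age after transplantation (31.7%) and 1 with age in iPSC (33.4%). They were found for 7 members between transplanted and steady-state HSC (54.8%), 3 between iPSC and ESC (23.8%) and 8 between iPSC and steady-state HSC (73.3%).

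A chosen list of 56 other imprinted genes, of which 50 were on the array, gave few calls with age and none between iPSC and ESC. At steady state 1 of 38 tested genes was called, beside 1.18% of all genes. Asb4, a maternally expressed gene for a ubiquitin ligase subunit, read 5.62, 5.14 and 5.35 in young and 6.82, 7.57 and 6.72 in aged HSC, all aged arrays above all young ones, and rose by 1.67 (SE 0.26, 3.18-fold, adjusted p = 0.0115). That call was lost without young steady-state array 2 (adjusted p = 0.0695) or 3 (0.0671), in a range of 0.000333 to 0.0695 over 20 alternatives. After transplantation Asb4 read 3.78 to 4.40, and 0 of 38 genes were called with age, though 6 had an unadjusted p under 0.05. The 2 with the smallest p were Trappc9 at 0.86 (adjusted p = 0.161) and Phactr2 at 0.71 (adjusted p = 0.166). Mature blood markers summed to 981 to 1963 in young and 942 to 1078 in aged transplanted HSC, and 1 of 5 tested fell with age, Csf1r, from a mean of 6.85 to 3.24. Their part in the age differences of Ndn, Phlda2 and Igf1 was not tested. No gene of the imprinted list was called for the difference between the age effects, where 3 had an unadjusted p under 0.05. The list's medians were 0.01 at steady state and -0.02 after transplantation, beside -0.02 and -0.02 over all genes.

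Between iPSC and ESC, 0 of 36 tested genes of the list were called and 8 had an unadjusted p under 0.05. The 2 with the smallest p were H13 at 0.85 (SE 0.20, adjusted p = 0.199) and the paternally expressed gene Impact at -0.47 (adjusted p = 0.212). The median of the list was 0.01, beside 0.00 over all genes. Between aged-origin and young-origin iPSC 0 of 36 were called and 1 had an unadjusted p under 0.05, and the 2 with the smallest p were Tspan32 at -0.45 and Sgce at 0.32, both with an adjusted p of 0.976. The 12 fibroblast and feeder markers summed to 4005 to 5392 in iPSC and 5102 to 5480 in ESC, 0 of the 9 tested were called (3 had an unadjusted p under 0.05), and their median difference was -0.30. The part of feeder RNA in the values of Mcts2 and Zdbf2 was not tested.

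**Figure D5:**
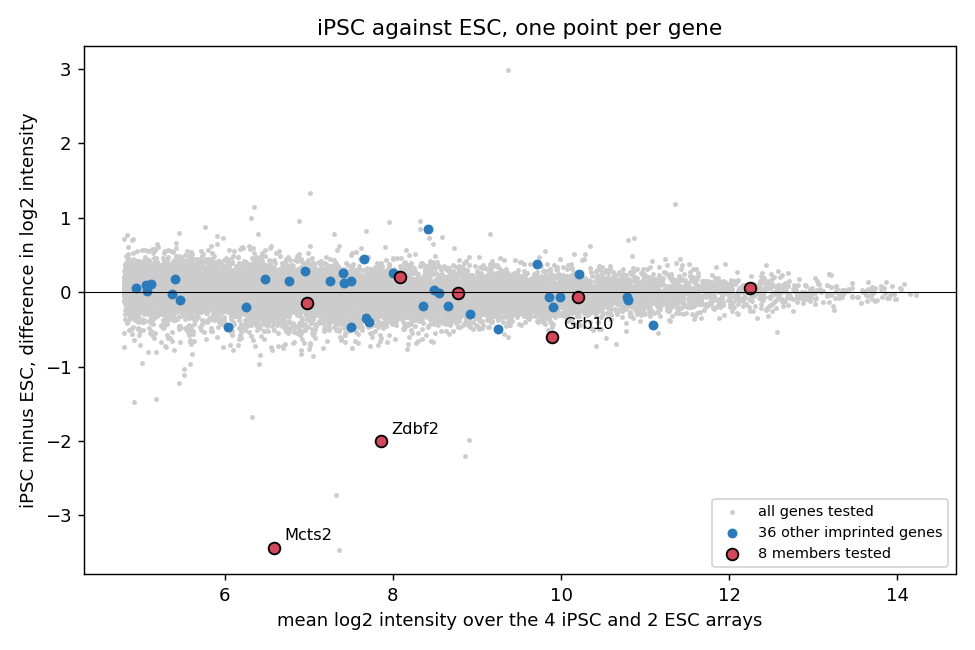
Difference between the 4 iPSC and 2 ESC arrays in log2 intensity (y axis) against mean log2 intensity over those 6 arrays (x axis), one point per gene for 13645 genes. The 8 tested members are red and 36 other imprinted genes blue. Mcts2 at -3.44 and Zdbf2 at -2.00 lie far below the other imprinted genes, of which none was called. The members were chosen with these differences known, so their distance from the list is a description only.

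Imprinted genes of the list were called often where most genes were called. Between iPSC and steady-state HSC 35 of 41 were called, 17 higher and 18 lower, beside 76.4% of all genes. The list median was -0.29, beside 0.17 over all genes. Slc38a4, an amino acid transporter expressed from the paternal copy in the placenta, rose (adjusted p = 7.41e-14). It read 9.82 to 10.07 in iPSC and 3.21 to 4.11 in steady-state HSC, under the 25th percentile on each of those 6 arrays, so no fold is given. Ddc, an enzyme of monoamine synthesis next to Grb10, rose 26.9-fold, a size that rests on steady-state levels of 4.11 to 4.58, near the 25th percentile. The growth regulators Plagl1 and Mest rose 11.7-fold and 8.46-fold. Of those that fell, Gatm, an enzyme of creatine synthesis, fell by 3.74 and Sgce, a sarcoglycan gene next to Peg10, fell by 3.54. Phactr2 fell too, from 9.20 to 9.71 in HSC to 3.45 to 4.10 in iPSC, where all 4 arrays were under the 25th percentile, so no size is given.

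Between transplanted and steady-state HSC 23 of 38 were called, 7 higher and 16 lower. Of all genes 69.9% were called, 19.8% higher and 50.1% lower. The list median was -0.33, beside -0.457 over all genes. Cdkn1c, the maternally expressed inhibitor of cyclin-dependent kinases that marks quiescent HSC, fell by 2.71 (SE 0.19, adjusted p = 9.25e-07). Sgce fell by 2.56 and Blcap fell by 2.06. Impact rose by 2.03 and Mest by 1.31. With each gene's probe sets averaged the counts were 13 higher and 17 lower of 42 tested. Probe sets of the same gene often disagreed here, since 63.3% of genes with several sets above the filter had sets pointing both ways, against 41.8% to 59.1% in the other 6 comparisons. The 10 HSC markers fell as well, all 10 called lower with a median of -1.82, and their part in the result was not tested.

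The factors that keep imprinted marks formed a list of 13 genes with 12 measured. With age at steady state 0 of 12 were called and 3 had an unadjusted p under 0.05. The methyltransferase gene Dnmt3b was lower in aged HSC with an adjusted p of 0.284 (limma). It became 0.04 with the mean of its probe sets, 0.0403 on the steady-state arrays alone and 0.0139 with array quality weights. With those weights Dnmt1 was called lower too (0.0368). No gene of the list was called with age at steady state in any other setting. The fit on steady-state arrays alone and the quality weights were chosen after the data were seen. With age after transplantation or in iPSC, and between iPSC and ESC, 0 were called and 0 had an unadjusted p under 0.05. All 12 were called between iPSC and steady-state HSC, 10 higher and 2 lower, beside 76.4% of all genes. Dnmt3l, the cofactor of new methylation in the germ line, rose 48.2-fold, and Dppa3, which protects methylation in the zygote, 20.1-fold. These sizes rest on steady-state levels of 4.63 to 5.39 and 4.82 to 5.22, below the array medians. Zfp57 rose 2.28-fold (adjusted p = 4.22e-05, limma), whereas Zfp445, a second zinc finger of imprint control, fell by 1.38. In transplanted HSC 9 of 12 were called, 4 higher and 5 lower, beside 69.9% of all genes. With each gene's probe sets averaged it was 6 higher and 3 lower. The methyltransferase Dnmt3a rose from 6.49 to 7.17 at steady state to 11.53 to 12.27 after transplantation (4.98, adjusted p = 1.68e-08), Zfp57 rose by 1.54, and Zfp445 fell by 2.42.

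The IGF and insulin pathway, in which Igf2, Igf2r and Grb10 act, formed a list of 19 other genes with 17 measured. The growth factor gene Igf1 fell with age after transplantation by 1.10 (SE 0.22, adjusted p = 0.0416, limma), at 6.70 and 6.90 for young against 5.50 and 5.89 for aged marrow. It was the single call of 12, beside 1.35% of all genes. The adjusted p stayed under 0.05 in 8 of 21 alternatives, over a range of 0.00429 to 0.999. No gene of the list was called with age at steady state, where 1 had an unadjusted p under 0.05, nor with age in iPSC or between iPSC and ESC, where 0 of 15 did. Against steady-state HSC, 10 of 13 were called in iPSC, 7 higher and 3 lower, beside 76.4% of all genes. The receptor gene Igf1r fell by 3.46 and Insr fell by 3.90, and Igf2bp1 and Igf2bp3, whose proteins bind Igf2 mRNA, rose 8.52-fold and 17.8-fold. The binding protein gene Igfbp2 rose 37.1-fold, a size that rests on steady-state levels of 4.16 to 4.79, near the 25th percentile. In transplanted HSC 9 of 12 were called, 5 higher and 4 lower, beside 69.9% of all genes. The split became 4 higher and 5 lower when each array was centred on its median or under quantile normalisation. With each gene's probe sets averaged it was 8 higher and 3 lower, with no filter 6 and 5, and with all 16 arrays 6 and 4. Igf1r fell by 2.47 there and Insr fell by 2.16.

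For each member, the genes with the most similar level over the 16 arrays were found by Pearson r, as a description without a test, since the 16 points fall into a few cell types. Peg3 followed Pdpn most closely (r = 0.997), then Ckb and Pard3. Phlda2 was nearest to Acy1 (0.989), Igf2 to Pfpl (0.988), Ndn to Thra (0.978), Igf2r to Cdk20 (0.975), Grb10 to Bcap29 (0.970) and Zdbf2 to Shisa4 (0.962). Mcts2 had the weakest nearest neighbour, Exosc10 (0.891), followed by Ap1g1 and Ppp2r2a. None of the genes named here for likeness is a member or on the list of imprinted genes.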

How the data were processed

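Biotinylated cRNA was made from 10000 cells per sample with the standard Affymetrix protocol after extraction with a QIAGEN kit, per the labels. The authors deposited 1 table of linear intensity values for 45101 probe sets on 16 arrays, with array medians of 43.5 to 51.9. Their method of summary and scaling was, in the sources used here, not stated. Log2 was taken with no pseudocount and the deposited scaling was kept. Probe sets with exactly 1 gene symbol in the platform annotation numbered 34945, another 932 had several symbols, 9160 were not named, and the 64 control probe sets stayed out of all tests. The brightest probe set by mean over the 16 arrays stood for its gene.

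Comparisons were fitted with limma 3.58.1 (lmFit, eBayes) in R 4.3.3 on the 10 HSC arrays, the 6 iPSC and ESC arrays, or all 16, with 6, 3 and 9 residual degrees of freedom. Genes under the 25th percentile of mean log2 level in a fit were not tested, so 13645 genes remained. Every adjusted p is limma's, adjusted by the Benjamini-Hochberg method over all genes tested, and a gene was called under 0.05. Scripts were tested on simulated data with 200 changed genes. The members, the lists and the alternatives were chosen with earlier results of these data known. The named genes are the members, per list and comparison up to 6 called genes a direction or else the 2 with the smallest p, listed neighbours, markers, and the 3 nearest genes by correlation. Same-numbered arrays did not deviate together (correlations of -0.197 to 0.194), so replicate numbers were not used as pairs. The number of arrays, 3 or 2 a group, limits the precision. Promoter sequences and positions are from RefSeq (GRCm38.p6).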

Additional observations from a re-analysis of the deposited data

Results flagged for a closer look

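The age difference of Ndn pointed in opposite directions in HSC and in iPSC. All 3 aged steady-state arrays lay above all 3 young ones, with a difference of 0.38 (SE 0.19), whereas both aged-origin iPSC arrays lay below both young-origin arrays, with a difference of -0.35 (SE 0.15). Over all genes, 18.2% had age groups that did not overlap at steady state and 33.4% in iPSC. Of the 5 bright Ndn probe sets, 3 were lower in aged-origin iPSC without overlap, and 2 overlapped. The difference between the 2 age effects was not tested.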

How the results depend on the processing

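Over 63 member differences and 1247 values under alternatives, 1191 moved by less than the spread between replicates, 55 moved further and 1 called difference changed sign. That was Grb10 in transplanted against steady-state HSC, which was -0.51 from its brightest probe set and 1.37 from the mean of its probe sets. Another filter, another variance model or an array left out of a group not compared cannot move a difference between group means. Such settings are among the 1191, so that count does not measure stability. The difference of Mcts2 between iPSC and ESC was -2.94 without ESC array 1 and -3.94 without ESC array 2. Centring each array on its median moved the median of all genes between transplanted and steady-state HSC from -0.457 to -0.602.

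Among the other imprinted genes, the count moved by more than 1.5 times, or to or from 0, in 2 settings other than leaving out an array. A filter at the 50th percentile left 0 with age at steady state, since Asb4 was no longer tested, and 22 between iPSC and steady-state HSC, where 26 rather than 41 were tested. All 16 arrays in one fit gave 1 with age after transplantation, Trappc9 (adjusted p = 0.0481). Over the settings that left out no single array, counts ran from 18 to 30 between transplanted and steady-state HSC and from 22 to 42 between iPSC and steady-state HSC. Leaving out 1 array at a time gave 0 to 1 calls with age at steady state, 0 to 3 after transplantation, 0 to 1 for the difference between them, 0 to 0 in iPSC, 0 to 1 between iPSC and ESC, 31 to 37 between iPSC and steady-state HSC and 23 to 28 between transplanted and steady-state HSC. The age calls after transplantation were Snrpn, Peg12 and Commd1 without young transplanted array 1, and Airn and Trappc9 without array 2. The difference between the age effects called Snrpn without the first and Trappc9 without the second, and H13 was called between iPSC and ESC without ESC array 2. These names were chosen after their values were seen. The cause of these changes was not tested.

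With the replicate block, the counts among other imprinted genes were 1 with age at steady state, 0 after transplantation, 0 for the difference, 0 in iPSC and 22 between transplanted and steady-state HSC. The numbers carry no known pairing, and no array correlated best with its own number. The block ended the call of Igf1. A crossed pairing of the transplanted arrays, whose same-number correlation was -0.159, gave 0 calls among other imprinted genes and 0 in the IGF list.

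Chosen after seeing the data were the crossed pairing, quality weights, and fits on steady-state, transplanted or iPSC arrays alone or without transplanted arrays. Without detection calls, dim probe sets set no lower limit on expression.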

Other observations

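The probe set 1448194_a_at carries the symbols of both Mir675 and H19 and so names neither gene alone. It read 6.77, 7.47 and 7.30 in young and 4.80, 6.15 and 5.87 in aged steady-state HSC, with all aged arrays below all young ones and a difference of -1.58. In transplanted HSC it read 3.59, 4.73, 4.50 and 3.98, young before aged, which overlapped. In iPSC it read 8.53, 9.06, 9.09 and 8.26, above both ESC arrays at 7.01 and 7.96, with a difference of 1.25. No test was made on this probe set.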
